A study of Homo sapiens with 12 samples.

Results

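The genes described here are 42 human splicing factors: 12 SR proteins and TRA2 factors, 13 hnRNP proteins, 8 subunits of the U2 snRNP (SF3A, SF3B) and U2AF, 7 Sm core proteins, and PRPF8 and PRPF19. They were chosen by name as SR protein, hnRNP and spliceosome genes, out of 28278 genes in a table of transcript counts, and each of the 42 has a row in it. The counts come from OCI-Ly7, an established human cell line of diffuse large B-cell lymphoma, grown in IMDM with fetal bovine serum and given no treatment. RNA was counted at transcript 3′ ends by MARS-seq, a barcoded sequencing protocol. The 4 lines were wild type, a line with the EZH2 Y646N gain-of-function mutation (EZH2 mutant), a line without KMT2D (kmt2d-/-, KMT2D mutant) and a line with both changes (double mutant). There were 2 libraries of the EZH2 mutant and 3 of each other line. The labels do not say whether a line is 1 clone, nor whether replicates were separate cultures, so the tests reflect the spread among these libraries alone, which may be technical.

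Introns are removed from pre-mRNA by the spliceosome, which is built from small nuclear ribonucleoproteins (snRNPs). The Sm proteins form a ring on the U1, U2, U4 and U5 snRNAs, SF3A and SF3B hold the U2 snRNP at the branch site, U2AF reads the 3′ splice site, PRPF8 lies at the catalytic centre, and PRPF19 is the ubiquitin ligase of the Prp19 complex. SR proteins bind exonic enhancers and generally promote use of nearby splice sites, whereas hnRNP proteins package nascent RNA and often act against them. EZH2 is the Polycomb enzyme for methylation of histone H3 lysine 27, and KMT2D an enhancer-associated methyltransferase for lysine 4. Both genes are recurrently mutated in germinal centre lymphomas.

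Library totals ran from 1118710 to 3107871 counts, and the 42 genes held 0.738% to 0.868% of them. All 8 B-cell markers had enough counts to be tested, and their sums were 12294 to 17752 CPM (counts scaled by library total and TMM factor) in wild type, 19092 to 26129 in EZH2 mutant libraries, 12484 to 16179 in the KMT2D mutant and 17594 to 18948 in the double mutant. Of the 8, 3 were called higher and none lower in the EZH2 mutant against wild type, where 32.3% of all tested genes were called. Set against the KMT2D mutant, the double mutant had 2 higher and none lower, where 41.9% of all tested genes were called. Calls went down elsewhere. The double mutant had 0 higher and 1 lower against wild type, and the same against the EZH2 mutant. KMT2D mutant libraries against wild type also gave 0 higher and 1 lower, and the interaction described below gave 0 higher and 2 lower. Over 10 T and NK cell markers the sums were 191.5 to 298 CPM, nearly all LCK, with CD3D and CD2 at 0 in every line. Over 9 myeloid markers they were 19.2 to 32.3 CPM in wild type, 15.4 to 17.4 in the EZH2 mutant, 10.7 to 17.2 in the KMT2D mutant and 5.23 to 6.8 in the double mutant, with CSF1R, S100A8 and S100A9 at 0 in every line. Fibroblast and epithelial markers summed to 0.993 to 8.82 CPM over 8 genes, and 5 erythroid and platelet markers were at 0. The part of any of these marker differences in the values of the splicing genes was not tested. In bulk libraries such as these, fewer cells of a type and less RNA per cell cannot be told apart. EZH2 lay between 54.3 and 91.3 CPM and KMT2D between 19.5 and 65.6 CPM, with the lines overlapping for KMT2D, and 3′ counts check neither genotype.

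Of the 42 genes, 35 had enough counts for a test, and 7 did not. The 3 most counted were SNRPB (mean 1337 CPM over the 11 libraries), SNRPD2 (1063 CPM) and HNRNPD (723 CPM), and the least counted of the 35 were SNRPD1 (3.98 CPM), HNRNPU (4.35 CPM) and SRSF1 (6.23 CPM). In all, 23 genes had a mean of at least 50 CPM, 5 lay between 10 and 50 CPM and 7 of those tested lay under 10 CPM. The untested genes were SNRPE with 43 counts over all libraries, SRSF10 with 33, HNRNPR with 25, TRA2B with 20, SRSF11 with 15, HNRNPA0 with 1, and U2AF1 with 0. A count of 0 allows up to 3 counts, which covers counting error only. By library total alone, without the TMM factor, that is 0.965 CPM in the deepest library and 2.68 CPM in the shallowest. With the factor it is 3.07 CPM in the shallowest. U2AF1 encodes the small subunit of U2AF, which dividing cells need, so it is reported only as listed at 0. Its near-identical copy U2AF1L5 was also at 0, and the related U2AF1L4 had 1368 counts. Counts of HNRNPA1 are uncertain because copies took reads of their own (221 counts for HNRNPA1L2 and 74 for HNRNPA1P10, beside 5397), and those of HNRNPA3, HNRNPC, HNRNPK, SNRPE, SNRPF and SNRPG could also be shared with pseudogenes or copies.

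The first question was how these genes differed when EZH2 was mutant. Between the EZH2 mutant and wild type, 8 of the 35 tested genes rose and 3 fell at an adjusted p under 0.05 (quasi-likelihood test of edgeR, p-values adjusted by Benjamini-Hochberg over all genes). Over all 8813 tested genes 32.3% were called, 17.1% higher and 15.1% lower, so the count for the splicing genes is near the background. Among genes of at least 50 CPM, 9 of 23 splicing genes were called against 45% of 3194. The median log2 fold change was 0.11 over the 35 genes and -0.04 over all tested genes. The same mutation on the KMT2D mutant background, the double mutant against the KMT2D mutant, gave 7 higher and 5 lower of 35, where 41.9% of all tested genes were called, 21.2% higher and 20.8% lower. Among genes of at least 50 CPM, 10 of 23 were called against 52.2% of all such genes. Its median was 0.12 over the 35 genes and -0.02 over all. The split depends on library scaling. With upper-quartile factors, which moved the all-gene median to -0.20 in the first comparison and -0.16 in the second, 6 splicing genes were higher and 6 lower in each. By that scaling 1015 of 2777 genes called in the first comparison were higher, and 1342 of 3642 in the second, against 1511 of 2846 and 1864 of 3695 by TMM. The calls lost by that scaling were HNRNPM and SNRPD2 in the first comparison and SF3B2 in the second. Scaling that varies with abundance (cyclic loess) ended the calls of SRSF9, HNRNPC, HNRNPM, SNRPB and SNRPD2 in the first comparison, and of HNRNPC, HNRNPM and SF3B2 in the second.

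**Figure D1:**
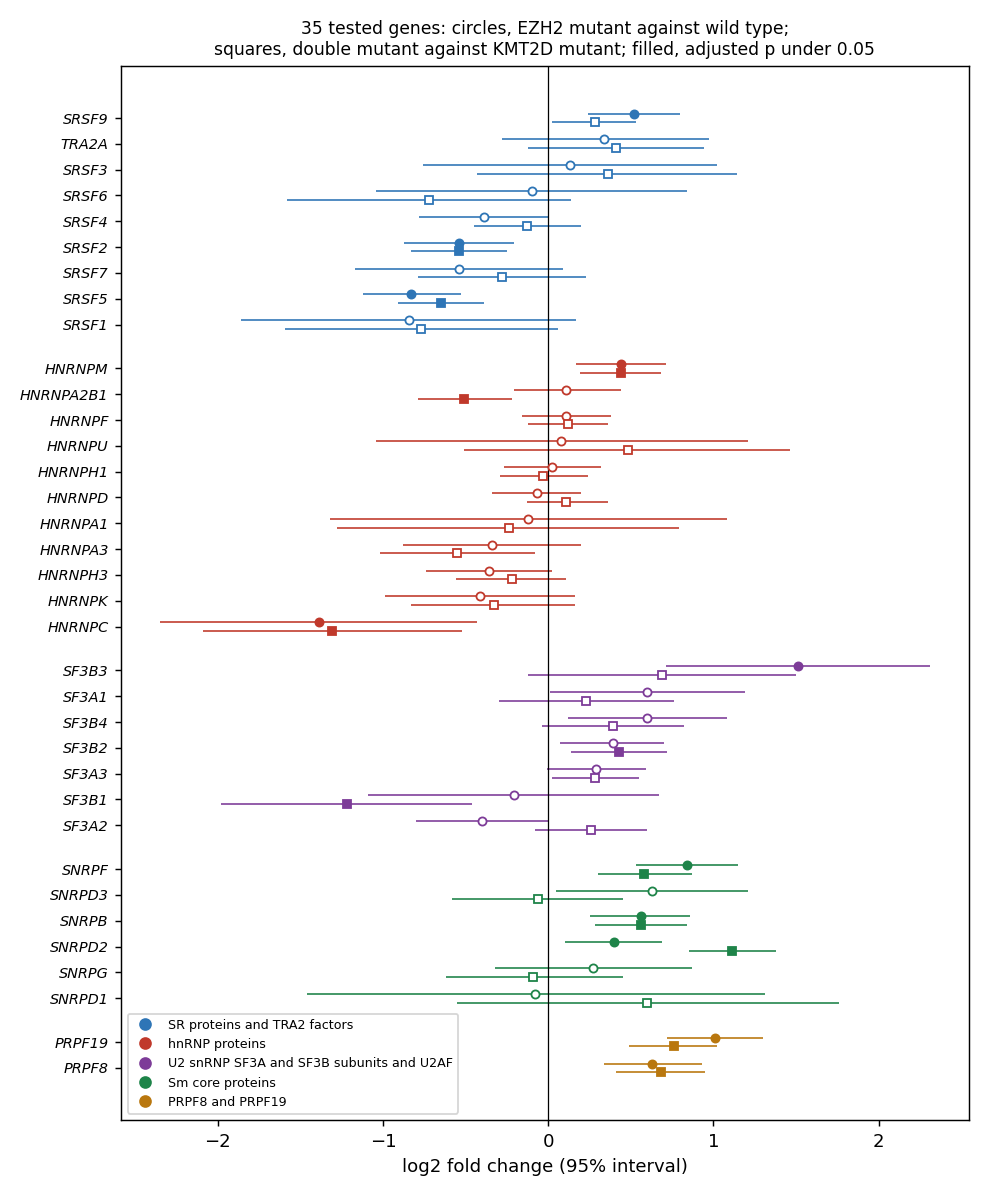
Log2 fold change (horizontal axis) with 95% interval for each of the 35 tested splicing genes, by role, in the comparisons of the EZH2 mutant with wild type and of the double mutant with the KMT2D mutant. PRPF19 lies at 1.01 and 0.76 and SRSF5 at -0.83 and -0.65, while most hnRNP genes have intervals that include 0.

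PRPF8 and PRPF19 rose with mutant EZH2 on both backgrounds. PRPF19 was counted at 223, 249 and 225 CPM across wild-type libraries, 498 and 437 in EZH2 mutant libraries, 171.5, 177 and 190.3 in the KMT2D mutant and 332, 325 and 254.5 in the double mutant. Each EZH2 mutant library lay above every library of the other lines, and the double mutant lay between them and wild type. The difference from wild type was log2 1.01, SE 0.14, adjusted p = 3.2e-05 in the EZH2 mutant, and from the KMT2D mutant it was log2 0.76, SE 0.13, adjusted p = 0.00012 in the double mutant. For PRPF8 the values were 530.1, 422 and 482 CPM in wild type, 803 and 682 in EZH2 mutant libraries, 388, 479 and 378 in the KMT2D mutant and 661, 667 and 661 in the double mutant. All 5 libraries with mutant EZH2 lay above the 6 without it. The difference was log2 0.63, SE 0.14, adjusted p = 0.0022 in the first comparison and log2 0.68, SE 0.13, adjusted p = 0.00035 in the second.

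The Sm core genes rose or showed no call, and none fell, in these comparisons, with 3 of 6 tested genes higher in each. SNRPB encodes the SmB protein and SNRPD2 and SNRPF encode SmD2 and SmF, all parts of the ring. SNRPB had 1369, 1004 and 1261 CPM in wild type, 1929 and 1637 in EZH2 mutant libraries, 971, 1138.5 and 924 in the KMT2D mutant and 1515.5, 1495 and 1462 in the double mutant. The 5 libraries with mutant EZH2 again lay above the other 6. It differed by log2 0.56, SE 0.15, adjusted p = 0.0071 between EZH2 mutant and wild type, a call that was lost without wild-type replicate 2 or without EZH2 mutant replicate 1, and by log2 0.56, SE 0.13, adjusted p = 0.0023 between double and KMT2D mutant. SNRPF had 145, 122 and 135 CPM in wild type, 257 and 226 in EZH2 mutant libraries, 118, 131 and 109.5 in the KMT2D mutant and 157, 203 and 177 in the double mutant. The libraries with mutant EZH2 lay above all others. The differences were log2 0.84, SE 0.15, adjusted p = 0.00033 and log2 0.58, SE 0.14, adjusted p = 0.0021.

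SNRPD2 had 1096.5, 1112 and 981 CPM in wild type, 1388 and 1411 in EZH2 mutant libraries, 624.5, 549 and 628 in the KMT2D mutant and 1509.5, 1298 and 1097 in the double mutant. The KMT2D mutant was low and stood apart from the other lines, and wild type overlapped the double mutant. The EZH2 mutant differed from wild type by log2 0.40, SE 0.14, adjusted p = 0.038, a call lost without any 1 of these 5 libraries and in 12 of 15 alternatives in all. The double mutant differed from the KMT2D mutant by log2 1.11, SE 0.13, adjusted p = 2.2e-06. SNRPD3 did not pass in the EZH2 mutant (log2 0.63, SE 0.28, adjusted p = 0.089), nor did SNRPG (log2 0.27, 95% interval -0.32 to 0.87) or SNRPD1 (log2 -0.08, 95% interval -1.46 to 1.31). Summed over the 7 Sm genes, the counts were 2735, 2409 and 2499.5 CPM in wild type, 3707 and 3486 in EZH2 mutant libraries, 1846, 1963.5 and 1838 in the KMT2D mutant and 3316, 3155.5 and 2875 in the double mutant. SNRPB and SNRPD2 make up most of that sum.

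**Figure D2:**
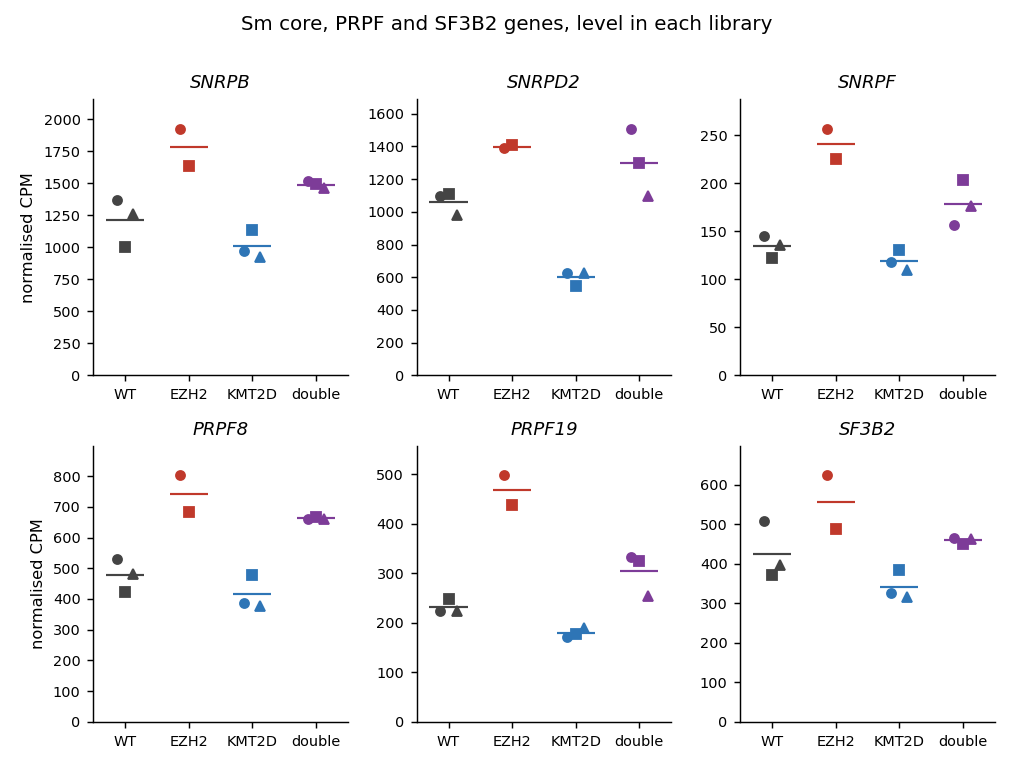
Normalised CPM (vertical axes, from 0) of SNRPB, SNRPD2, SNRPF, PRPF8, PRPF19 and SF3B2 in each library of the 4 lines. Points are libraries and bars are line means; the EZH2 mutant points of PRPF19 lie at 498 and 437, above all others, and SNRPD2 is low only in the KMT2D mutant, at 549 to 628.

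Of the 7 tested U2 snRNP genes, 1 rose in the EZH2 mutant and none fell. SF3B3, a scaffold subunit of SF3B, was counted at 5.66, 5.44 and 7.67 CPM in wild type, 17.4 and 18.4 in EZH2 mutant libraries, 3.05, 6.04 and 7.28 in the KMT2D mutant and 11.3, 4.53 and 8.72 in the double mutant, on 46 wild-type and 54 EZH2 mutant counts in all. The EZH2 mutant stood above all other libraries. It differed from wild type by log2 1.51, SE 0.38, adjusted p = 0.0058, a call lost without EZH2 mutant replicate 2, and the double mutant did not pass against the KMT2D mutant (log2 0.69, SE 0.39, adjusted p = 0.16). On the KMT2D mutant background SF3B2 rose (log2 0.43, SE 0.14, adjusted p = 0.017), with 325, 385 and 315 CPM in the KMT2D mutant and 466, 450.1 and 463 in the double mutant. That call was lost without any of KMT2D mutant replicates 1 and 3 and double mutant replicates 1 and 3. SF3B1, the branch-site clamp that is mutated in several blood cancers, fell there (log2 -1.22, SE 0.36, adjusted p = 0.011), from 22.2, 11.4 and 16.8 to 9.87, 7.55 and 4.65 CPM, and the call was lost without KMT2D mutant replicate 1 or double mutant replicate 3. In the other background SF3B1 gave log2 -0.21, 95% interval -1.09 to 0.67, with the lines overlapping. SF3A1, SF3A2, SF3A3 and SF3B4 were called in neither comparison, and ranged from log2 -0.40 for SF3A2 to 0.60 for SF3A1 and SF3B4 in the EZH2 mutant against wild type.

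Among the 9 tested SR and TRA2 genes, 2 fell and 1 rose in the EZH2 mutant, and 2 fell in the double mutant against the KMT2D mutant. SRSF5 had 576, 747 and 747 CPM in wild type, 369.7 and 408 in EZH2 mutant libraries, 639, 616 and 643 in the KMT2D mutant and 385, 401 and 423 in the double mutant. All libraries with mutant EZH2 lay below all libraries without it. The differences were log2 -0.83, SE 0.14, adjusted p = 0.00025 and log2 -0.65, SE 0.12, adjusted p = 0.00035. SRSF2, an SR protein that is mutated in myeloid neoplasms, had 447, 429.5 and 544 CPM in wild type, 276.5 and 369.8 in EZH2 mutant libraries, 444, 382 and 418 in the KMT2D mutant and 269, 257.5 and 330.1 in the double mutant. The same separation was seen, with EZH2 mutant replicate 2 nearest to the lines without the mutation. The differences were log2 -0.54, SE 0.16, adjusted p = 0.014, lost without wild-type replicate 3 or EZH2 mutant replicate 1, and log2 -0.54, SE 0.14, adjusted p = 0.0048.

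SRSF9 went the other way, with 255, 249 and 231 CPM in wild type and 389 and 316 in EZH2 mutant libraries (log2 0.52, SE 0.14, adjusted p = 0.0067), a call lost without EZH2 mutant replicate 1. On the KMT2D mutant background it did not pass, at 243, 244 and 248.5 against 272, 333 and 288 CPM (log2 0.28, SE 0.12, adjusted p = 0.074). Beside SRSF9, the tested SR genes without a call in either comparison were SRSF4, SRSF7, TRA2A and, under 10 CPM, SRSF1, SRSF3 and SRSF6. Their log2 fold changes ran from -0.84 to 0.34 in the EZH2 mutant and from -0.77 to 0.41 in the double mutant against the KMT2D mutant. Over all 12 genes, 3 of them untested, the summed counts were 1391, 1563 and 1659.9 CPM in wild type, 1129 and 1213 in EZH2 mutant libraries, 1482.5, 1371 and 1441 in the KMT2D mutant and 1066, 1110.3 and 1168 in the double mutant. All 5 libraries with mutant EZH2 lay below the other 6, and SRSF2 and SRSF5 make up most of that sum.

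Most hnRNP genes gave no call. Of 11 tested, 1 rose and 1 fell in the EZH2 mutant, and 1 rose and 2 fell in the double mutant against the KMT2D mutant. HNRNPM, a GU-rich RNA binder, had 417, 381 and 355 CPM in wild type, 504 and 536 in EZH2 mutant libraries, 338, 348 and 313 in the KMT2D mutant and 455, 484 and 413 in the double mutant. Its libraries with mutant EZH2 overlapped wild type only through double mutant replicate 3. The differences were log2 0.44, SE 0.13, adjusted p = 0.014, lost without wild-type replicate 2 or 3 or EZH2 mutant replicate 2, and log2 0.44, SE 0.12, adjusted p = 0.0056. HNRNPC, which packages nascent transcripts and binds uridine tracts, was thinly counted at 7.36, 8.84 and 17.3 CPM in wild type, 3.07 and 4.96 in EZH2 mutant libraries, 11.3, 12.1 and 12.3 in the KMT2D mutant and 3.95, 4.53 and 5.81 in the double mutant. That is 84, 13, 87 and 24 counts over the libraries of each line. It fell by 1.39 on the log2 scale in the EZH2 mutant (SE 0.46, adjusted p = 0.026), a call lost in 9 of 14 alternatives, including those without wild-type replicate 3 and without either EZH2 mutant library. On the KMT2D mutant background the difference was log2 -1.31, SE 0.38, adjusted p = 0.0089, lost without double mutant replicate 1.

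HNRNPA2B1, which binds RNA in splicing and in mRNA transport, was called on the KMT2D mutant background only, which is no test that the backgrounds differ. It had 77.5, 93.5 and 84.7 CPM in wild type, 88.1 and 96.3 in EZH2 mutant libraries, 115, 108 and 114 in the KMT2D mutant and 85.9, 71.8 and 79 in the double mutant. The KMT2D mutant libraries were the highest. The double mutant differed from them by log2 -0.51, SE 0.14, adjusted p = 0.0062, the EZH2 mutant differed from wild type by log2 0.11, 95% interval -0.21 to 0.44, and the interaction did not pass (log2 -0.62, SE 0.21, adjusted p = 0.12). HNRNPD, HNRNPF and HNRNPH1 passed in no comparison, and between EZH2 mutant and wild type they gave log2 -0.07, 95% interval -0.34 to 0.20, log2 0.11, 95% interval -0.16 to 0.38 and log2 0.02, 95% interval -0.27 to 0.32. HNRNPA1 was the most uneven of the genes above 50 CPM, with 147, 267 and 141 CPM in wild type, 142 and 195 in EZH2 mutant libraries, 383, 166.5 and 271.5 in the KMT2D mutant and 365, 163 and 166 in the double mutant. Within wild type, the KMT2D mutant and the double mutant the libraries spanned more than the line means did. Its pooled within-line SD was 0.56 on the log2 CPM scale, where the median was 0.15 over the 23 splicing genes of at least 50 CPM and 0.18 over all 3194 such genes.

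**Figure D3:**
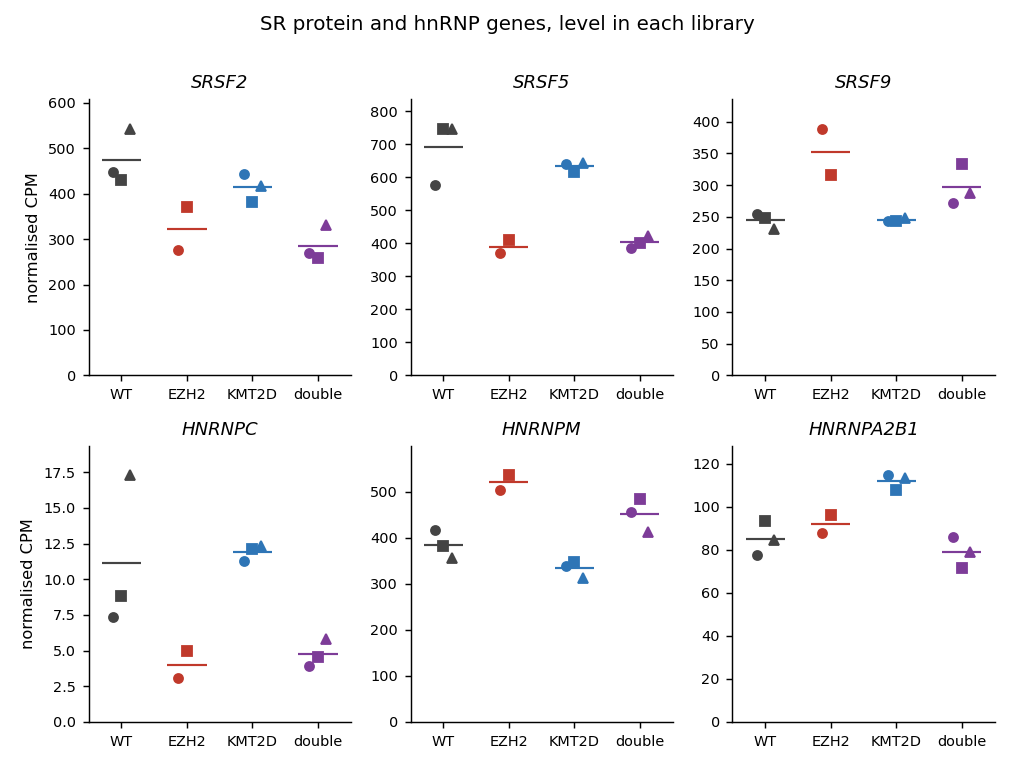
Normalised CPM (vertical axes, from 0) of SR and hnRNP genes in each library of the 4 lines, with points for libraries and bars for line means. SRSF5 lies at 370 to 423 in the 5 libraries with mutant EZH2 and at 576 to 747 in the 6 without it.

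The EZH2 mutant against wild type and the double mutant against the KMT2D mutant share no library, so their values can be set against each other. In both, 9 splicing genes passed in the same direction: PRPF8, PRPF19, SNRPB, SNRPD2, SNRPF and HNRNPM were higher, and SRSF2, SRSF5 and HNRNPC were lower. They are 9 of the 11 called in the first comparison and 9 of the 12 called in the second. In the first, the SNRPD2 call was lost in 12 of 15 alternatives, HNRNPC in 9 of 14 and HNRNPM in 6 of 15. SNRPB lost its call in 3 of 15 and SRSF2 in 2, while PRPF8, PRPF19, SNRPF and SRSF5 kept theirs in all 15. SNRPD2 was also low in the KMT2D mutant, against which the second comparison was made. Over all 8813 tested genes, 1901 passed in the same direction in both, of 2846 and 3695 called. No gene of the 35 was called in opposite directions. The sign was the same for 28 of the 35 genes, 80%, beside 78.1% of all tested genes. Pearson's r between the log2 fold changes was 0.76 across the 35 genes and 0.65 across all genes. Among genes of at least 50 CPM it was 0.81 across 23 splicing genes and 0.74 across 3194. These are descriptions across genes, which are not independent and share library depth. The shared direction was thus about as frequent among the splicing genes as among all genes.

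**Figure D4:**
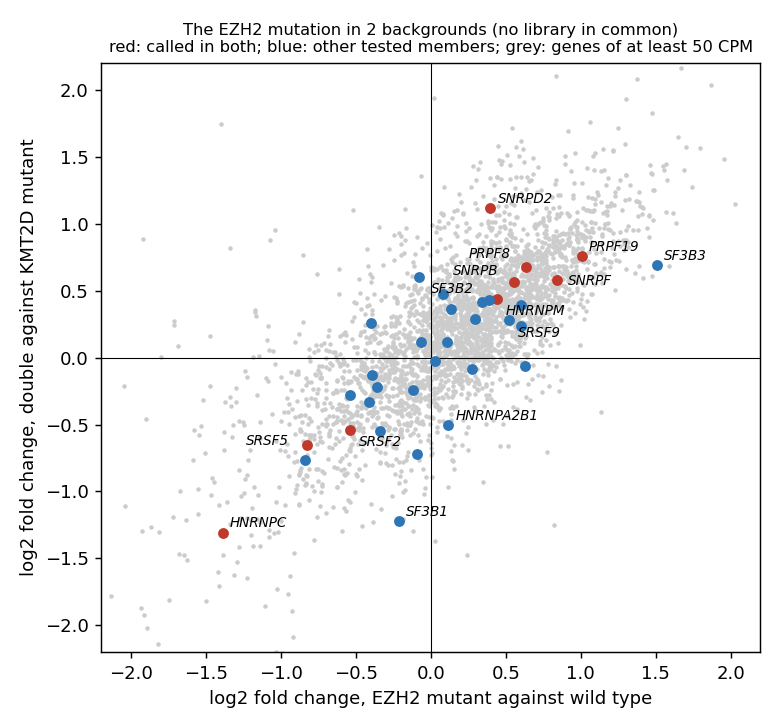
Log2 fold change of the EZH2 mutant against wild type (horizontal axis) and of the double mutant against the KMT2D mutant (vertical axis), which share no library. Red points are the 9 splicing genes called in both, blue points the other tested ones and grey points the 3194 genes of at least 50 CPM, of which 23 lie outside the axes.

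The double mutant was also compared with wild type, whose libraries serve the first comparison too. Of the 35 genes 3 rose and 3 fell, where 23.7% of all tested genes were called, 12.1% higher and 11.6% lower. With upper-quartile factors 1 rose and 4 fell, and over all genes 728 of 2046 called were higher, against 1068 of 2087 by TMM, with the all-gene median at -0.13. SRSF5 (log2 -0.78, SE 0.12, adjusted p = 0.00016) and SRSF2 (log2 -0.73, SE 0.14, adjusted p = 0.00095) fell in this comparison under each of the 16 alternatives run. PRPF8 rose (log2 0.47, SE 0.13, adjusted p = 0.011), a call lost without wild-type replicate 2. PRPF19 (log2 0.39, SE 0.13, adjusted p = 0.031) and SNRPF (log2 0.41, SE 0.13, adjusted p = 0.032) also rose, and HNRNPC fell (log2 -1.25, SE 0.38, adjusted p = 0.021), but these calls were lost in 10, 11 and 6 of the 16, 16 and 15 alternatives that tested them. Wild-type replicate 3 and double mutant replicate 2 were each decisive for all of PRPF19, SNRPF and HNRNPC. The calls for PRPF19 were also lost without wild-type replicate 1 or double mutant replicate 1, for SNRPF without wild-type replicate 2 or double mutant replicate 3, and for HNRNPC without double mutant replicate 1.

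Chosen after the values were seen, the promoter windows of some genes called in both EZH2 comparisons are shown for comparison of sequence. They come from RefSeq (GRCh38.p14), span 250 bases before to 50 bases after the gene start and are written 5′ to 3′ on the strand of the gene. Capitals mark the ETS core CCGGAA or its reverse complement TTCCGG and the CCAAT box or its reverse ATTGG. Of the 42 genes 37 had an entry. TRA2A, SRSF2, HNRNPA1, SF3B3 and SNRPD1 had none in the table used here.
PRPF19 (chr11:60906536-60906835, minus strand): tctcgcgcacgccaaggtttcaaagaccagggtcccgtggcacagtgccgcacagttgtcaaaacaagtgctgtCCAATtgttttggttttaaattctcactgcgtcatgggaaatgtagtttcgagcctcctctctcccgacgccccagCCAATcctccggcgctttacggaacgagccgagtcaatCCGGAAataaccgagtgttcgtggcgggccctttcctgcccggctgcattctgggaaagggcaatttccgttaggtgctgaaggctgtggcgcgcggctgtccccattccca
PRPF8 (chr17:1684818-1685117, minus strand): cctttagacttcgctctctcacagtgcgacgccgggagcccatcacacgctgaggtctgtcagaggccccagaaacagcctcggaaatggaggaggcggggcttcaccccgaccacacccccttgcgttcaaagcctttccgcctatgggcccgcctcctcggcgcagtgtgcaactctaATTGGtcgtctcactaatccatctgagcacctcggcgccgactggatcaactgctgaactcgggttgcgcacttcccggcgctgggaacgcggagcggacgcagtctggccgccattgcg
SNRPB (chr20:2470740-2471039, minus strand): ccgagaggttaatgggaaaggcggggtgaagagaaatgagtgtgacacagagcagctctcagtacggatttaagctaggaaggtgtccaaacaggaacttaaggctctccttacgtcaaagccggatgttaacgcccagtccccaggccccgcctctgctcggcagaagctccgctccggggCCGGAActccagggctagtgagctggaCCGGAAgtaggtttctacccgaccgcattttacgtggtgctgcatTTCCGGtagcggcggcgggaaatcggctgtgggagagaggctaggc
SNRPF (chr12:95858702-95859001, plus strand): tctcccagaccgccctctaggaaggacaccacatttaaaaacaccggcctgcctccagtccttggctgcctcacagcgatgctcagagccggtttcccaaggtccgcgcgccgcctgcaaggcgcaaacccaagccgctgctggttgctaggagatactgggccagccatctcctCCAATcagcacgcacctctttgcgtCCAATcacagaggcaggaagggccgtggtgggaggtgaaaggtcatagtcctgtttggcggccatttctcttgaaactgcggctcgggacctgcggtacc
SRSF5 (chr14:69766892-69767191, plus strand): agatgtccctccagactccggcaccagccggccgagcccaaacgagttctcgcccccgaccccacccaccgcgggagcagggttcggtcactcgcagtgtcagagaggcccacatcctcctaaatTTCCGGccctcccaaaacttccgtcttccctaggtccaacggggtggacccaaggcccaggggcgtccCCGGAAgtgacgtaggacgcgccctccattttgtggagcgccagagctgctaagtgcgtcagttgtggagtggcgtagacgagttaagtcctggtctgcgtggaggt

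The first 4 of these genes rose and SRSF5 fell. The windows differ in the motifs marked by capitals. PRPF19 has 1 ETS core and 2 CCAAT boxes, PRPF8 has 1 CCAAT box and SNRPB has 3 ETS cores. SNRPF has 2 CCAAT boxes and SRSF5 has 2 ETS cores. Over the 52 windows of the 37 matched genes, searched on both strands, 34.6% held the ETS core, beside 17.2% of 35116 RefSeq windows of the same length. The CCAAT box was in 30.8% against 34.6%, the GC box GGGCGG in 48.1% against 45.0% and the E-box CACGTG, which reads the same on both strands, in 11.5% against 7.3%. The letters searched do not overlap as motifs of one another. The 35116 windows were not limited to genes counted in these cells, and a gene can have more than 1 window. Whether the ETS share is particular to splicing genes was not tested. A match is a description of letters and not a bound site. An ETS core occurred in windows of genes that rose and of one that fell.

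Few of these genes differed in the KMT2D mutant by the test used. Between the KMT2D mutant and wild type, 1 of 35 passed, lower, where 7.66% of all tested genes were called, 3.18% higher and 4.48% lower. At an unadjusted p under 0.05 there were 5. The median log2 fold change was -0.07 over the 35 genes and 0.00 over all. The gene that passed was SNRPD2 (log2 -0.82, SE 0.13, adjusted p = 0.00041), whose KMT2D mutant libraries, at 624.5, 549 and 628 CPM, all lay below those of wild type, at 1096.5, 1112 and 981 CPM. It passed in each of the 16 alternatives. Next nearest were HNRNPA2B1 (log2 0.39, SE 0.13, adjusted p = 0.08) and PRPF19 (log2 -0.37, SE 0.13, adjusted p = 0.086), which passed only with abundance-dependent scaling and with only the compared groups in the fit, respectively. For SNRPB and SNRPF the values were log2 -0.26, 95% interval -0.54 to 0.02 and log2 -0.17, 95% interval -0.45 to 0.11, and for SRSF2 and SRSF5 log2 -0.19, 95% interval -0.48 to 0.10 and log2 -0.13, 95% interval -0.38 to 0.13.

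SNRPD2 is the only one of the 42 genes on the long arm of chromosome 19. Across that arm, 373 tested genes had a median log2 fold change of -0.72 in the KMT2D mutant. Together with 112 tested genes of 7 lists of other splicing factors, 9 splicing genes lie on this arm, and 8 of them fell, with a median of -0.82. They were PRMT1 (-0.98), HNRNPUL1 (-0.97), U2AF2 (-0.90), SNRNP70 (-0.88), SNRPD2 (-0.82), PRPF31 (-0.54), GEMIN7 (-0.53) and SNRPA (-0.44), all as log2 fold changes. HNRNPL did not pass (log2 -0.16, 95% interval -0.53 to 0.21). Of the 128 splicing genes on other chromosomes, 1 fell (SNRNP35, log2 -0.56, SE 0.15, adjusted p = 0.028) and none rose. SNRNP35 lost its call in 6 of 16 alternatives, among them those without wild-type replicate 2 or 3 or any KMT2D mutant library, and the same 5 omissions ended the call of GEMIN7. SNRPA lost it in 7 of 16, among them those without replicate 1 or 3 of either line, and PRPF31 without replicate 1 of either line. In the double mutant against wild type the 9 genes had a median of 0.27, with 2 higher and 0 lower. Of all tested genes 12.1% were higher there and 11.6% lower. Against the KMT2D mutant the double mutant gave a median of 1.11 with 8 higher, where 21.2% of all tested genes were higher. The number of copies of the arm in each line was not measured.

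**Figure D5:**
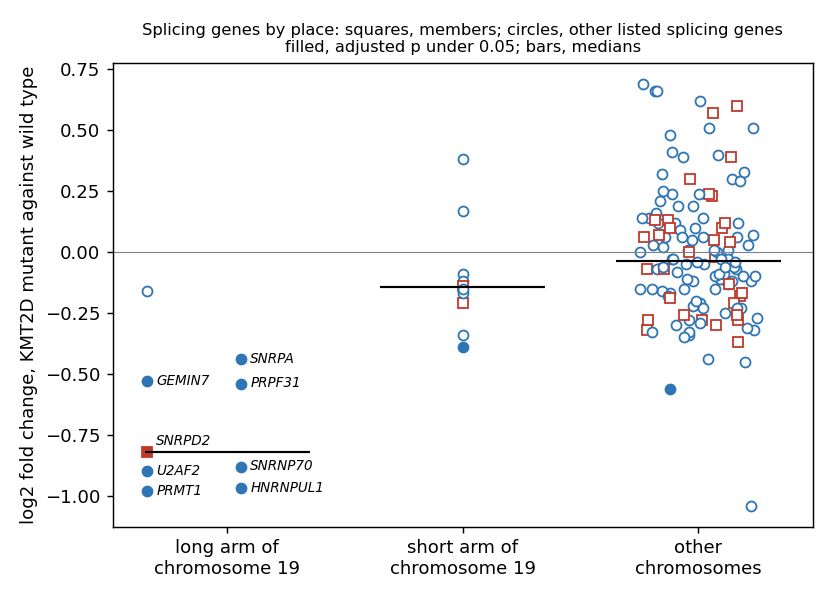
Log2 fold change of the KMT2D mutant against wild type (vertical axis) for 35 tested splicing genes described here (squares) and 112 listed pathway genes (circles), by place in the genome. Filled symbols passed the test and bars are medians; those on the long arm of chromosome 19 have a median of -0.82 and those on other chromosomes -0.04.

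On the EZH2 mutant background, KMT2D loss was read from the double mutant against the EZH2 mutant. PRPF19 fell (log2 -0.62, SE 0.14, adjusted p = 0.02), and it was the 1 gene of 35 that passed. Of all tested genes 2.29% were called, 0.715% higher and 1.58% lower. The PRPF19 call was lost without EZH2 mutant replicate 1 or double mutant replicate 3. At an unadjusted p under 0.05 there were 4 genes, PRPF19, SNRPF (log2 -0.43, SE 0.15, adjusted p = 0.15) and SF3B3 (log2 -1.07, SE 0.39, adjusted p = 0.17) with lower values and SF3A2 (log2 0.53, SE 0.19, adjusted p = 0.18) with a higher one in the double mutant. SNRPD2 gave log2 -0.10, 95% interval -0.40 to 0.19. The comparisons of KMT2D loss without and with mutant EZH2 share no library. Among the 35 genes 23 had the same sign in both, 65.7% beside 56% of all genes, with r = 0.18 beside 0.10 across all genes, and no gene was called in both. Over all 8813 genes 50 were called in both, 29 of them in the same direction.

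The interaction asks whether the double mutant departs from the sum of the single changes. SNRPD2 was the 1 gene of 35 that passed (log2 0.72, SE 0.19, adjusted p = 0.047), where 3.02% of all tested genes were called, 1.5% higher and 1.52% lower. Its call was lost in 10 of 20 alternatives, 9 of which left out a library, namely any library except wild-type replicate 2 and double mutant replicate 3. For PRPF8, SNRPB, SRSF2 and HNRNPM the interaction was log2 0.04, 95% interval -0.35 to 0.44, log2 0.00, 95% interval -0.41 to 0.42, log2 0.00, 95% interval -0.44 to 0.45 and log2 0.00, 95% interval -0.37 to 0.36. Those intervals bound a departure without showing that there is none. Of the 112 pathway genes 3 passed the interaction, HNRNPUL1, PRMT1 and GEMIN7, and all 3 lie on the long arm of chromosome 19. That share is also near the 3.02% over all genes. PRMT1 lost its call without EZH2 mutant replicate 2, and GEMIN7 without that library, KMT2D mutant replicate 3 or double mutant replicate 2.

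The wider pathway was read from the 7 lists, 130 genes of which 112 were tested. In the EZH2 mutant against wild type 34 of them rose and 7 fell, and in the double mutant against the KMT2D mutant 38 rose and 9 fell. These counts are near the 32.3% and 41.9% called over all genes, and among genes of at least 50 CPM calls leaned upward too, with 1049 of 3194 higher and 388 lower in the first comparison and 1242 higher and 425 lower in the second. The medians over the 112 genes were 0.23 and 0.24, beside -0.04 and -0.02 over all genes and 0.23 and 0.24 over genes of at least 50 CPM. In the double mutant against wild type 18 rose and 4 fell, where 12.1% of all tested genes were higher and 11.6% lower. Among genes of at least 50 CPM, 747 of 3194 were higher there and 281 lower. Of the 112, PRPF31 (log2 0.85), WDR77 (0.91), PHF5A (0.80), CLK3 (0.67) and SNRNP25 (0.57) were among those that rose and SYF2 (-0.60) among those that fell. In the KMT2D mutant 9 fell and none rose, where 3.18% of all tested genes were higher and 4.48% lower. Of the 9, 7 lie on the long arm of chromosome 19. None of the 112 passed in the double mutant against the EZH2 mutant, where 2.29% of all tested genes did. At an unadjusted p under 0.05 in edgeR there were 21 of the 112 and 1349 of all 8813. The counts of single lists given next are to be read against the 32.3% and 41.9% called over all genes.

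The list of U4/U6.U5, LSm and Prp19 complex genes, partners of PRPF8 and PRPF19, had 31 tested genes, of which 14 rose and none fell in the EZH2 mutant, and 14 rose and 3 fell in the double mutant against the KMT2D mutant. PRPF31, which bridges U4/U6 and U5, gave log2 1.15, SE 0.15, adjusted p = 1.4e-05 in the first and log2 1.40, SE 0.14, adjusted p = 2.8e-07 in the second. LSM7, of the ring on U6, gave log2 0.76 and 0.64, SNU13 rose in the first (log2 0.62), and EFTUD2, the GTPase of U5, gave 0.63 and 0.78. SYF2 fell in the second (log2 -0.79). Of 15 tested U1, U2 and branch site genes, 7 and 6 rose and none fell. PHF5A, a small SF3B subunit, gave log2 1.32, SE 0.16, adjusted p = 1.3e-05 and log2 0.83, SE 0.15, adjusted p = 0.00026, while SF3B5 gave 0.69 and 0.61 and PUF60 0.73 and 0.67 as log2 fold changes, the first of the PUF60 calls being lost without EZH2 mutant replicate 1. U2AF2, the large subunit of U2AF, and SNRNP70, of U1, gave log2 1.26 and 1.15 in the second comparison. Both lie on the long arm of chromosome 19, as does PRPF31, and each was lower in the KMT2D mutant than in wild type.

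Other hnRNP and RNA-binding regulators went both ways, as did the hnRNP genes above: of 26 tested, 3 rose and 5 fell in the EZH2 mutant, and 6 rose and 4 fell in the double mutant against the KMT2D mutant. HNRNPAB rose in both (log2 0.71 and 0.58). KHDRBS1, which encodes SAM68, fell in the EZH2 mutant (log2 -1.30, SE 0.28, adjusted p = 0.0039), where SYNCRIP rose (log2 0.87, SE 0.22, adjusted p = 0.0061). The first call was lost without EZH2 mutant replicate 1 and the other without replicate 2. HNRNPUL1, on the long arm of chromosome 19, rose on the KMT2D mutant background (log2 0.81). It was lower in the KMT2D mutant than in wild type (log2 -0.97). Of 17 tested SR-related regulators and SR kinases 5 rose and none fell in the EZH2 mutant, and 4 rose and 1 fell in the double mutant against the KMT2D mutant. They included LUC7L, a U1-associated factor (log2 0.92 and 0.62), and CLK3, a kinase of SR proteins (log2 0.67 and 0.53). CLK3 lost its first call without EZH2 mutant replicate 1 and its second without KMT2D mutant replicate 3 or double mutant replicate 2, and LUC7L its second without KMT2D mutant replicate 3. RNPS1 passed in the first (log2 0.74), but not once any 1 of the 5 libraries was left out. ACIN1 passed in the second (log2 0.50), a call lost in 6 of 16 alternatives, among them those without KMT2D mutant replicate 2 or 3 or double mutant replicate 1.

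Genes that assemble snRNPs showed 2 higher of 11 tested in the EZH2 mutant, WDR77 of the PRMT5 methylosome (log2 1.25, SE 0.22, adjusted p = 0.00035) and PRMT1 (log2 0.57, SE 0.16, adjusted p = 0.012), the latter lost without EZH2 mutant replicate 1. Of the same 11, 4 were higher in the double mutant against the KMT2D mutant, with PRMT1 at log2 1.57, WDR77 at 0.87 and GEMIN7 at 0.56, the last lost without double mutant replicate 2. PRMT1 and GEMIN7 lie on the long arm of chromosome 19, and both were lower in the KMT2D mutant than in wild type. In the minor spliceosome, which removes U12-type introns, 2 of 8 rose and 1 fell in the EZH2 mutant, SNRNP25 (log2 1.05) and SNRNP35 (0.45) upward and SNRNP48 (-1.25) downward. The SNRNP35 call was lost in 14 of 15 alternatives, among them each library left out. In the double mutant against the KMT2D mutant 3 rose and 1 fell, among them SNRNP25 (0.71) and ZMAT5 (0.54) upward and RNPC3 (-1.08) downward, with ZMAT5 lost without KMT2D mutant replicate 1 or double mutant replicate 3. Of the 4 tested exon junction complex genes, RBM8A rose (log2 0.70) and CASC3 fell (-0.91) in the EZH2 mutant, and EIF4A3 rose (0.33) on the KMT2D mutant background. RBM8A lost its call in 8 of 15 alternatives, with wild-type replicate 2 and either EZH2 mutant library among those left out, CASC3 lost it without either EZH2 mutant library, and EIF4A3 in 11 of 16, among them any KMT2D mutant library and double mutant replicates 1 and 3.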

How the data were processed

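RNA of 4 OCI-Ly7 lines was measured by MARS-seq on a NextSeq500, per the labels' protocols. The deposited table holds counts per gene. The submitters' processing notes name Trim Galore 0.6.0, cutadapt 1.15, FastQC, STAR 2.7.0f and DESeq2, with no role for the last. What counted the reads, against which build and annotation and with which strand setting, is not given in the sources used here. The table is called corrected without saying for what, so its values may differ from raw read counts. It has 28278 genes, 13188 of them at 0 in every library, and 11 libraries of 1118710 to 3107871 counts. Replicate 3 of the EZH2 mutant has no column and was not analysed here. Columns marked DM were read as the double mutant.

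Counts were fitted in R 4.3.3 with edgeR 4.0.16: filterByExpr with a minimum count of 10 (8813 genes), TMM factors, robust quasi-likelihood fits over all 11 libraries with a term for each line, and Benjamini-Hochberg adjustment over all genes in each comparison at 0.05. Intervals of 95% use the quasi-likelihood degrees of freedom. The fit was tested on simulated data. Replicates differed by more than sampling noise, so none was treated as a repeat reading of another library. That does not show that they were separate cultures.

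The splicing genes and lists were chosen with earlier results of these data known. Within each role and comparison up to 4 called genes with the smallest adjusted p were named, with genes called in both EZH2 comparisons, in the KMT2D comparison, in the interaction or on the long arm of chromosome 19. Up to 3 were named per pathway list and comparison. Genes without a call were added where they help a reading, and 1 gene that the rule would name is not reported here. Alternatives were RLE and upper-quartile factors, loess offsets, no filter, a stricter filter (minimum count 30), DESeq2 1.42.0, limma-voom (limma 3.58.1), only the groups compared, a replicate block, thinning to 1118710 counts and leaving out each library. Chromosome arms and promoter sequences came from RefSeq tables. Figures were drawn with Python 3.11.15, pandas 2.3.3 and matplotlib 3.10.9.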

Additional observations from a re-analysis of the deposited data

Results flagged for a closer look

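The interaction of the EZH2 and KMT2D mutations, tested with edgeR over all genes, passed for 4 splicing genes, a share near the 3.02% called among all 8813 tested genes. On the log2 scale it was 0.72 for SNRPD2, 1.09 for HNRNPUL1, 1.00 for PRMT1 and 0.96 for GEMIN7. The call was lost in 10 of 20 alternatives for SNRPD2, 3 for GEMIN7, 1 for PRMT1 and 0 for HNRNPUL1. These genes lie on the long arm of chromosome 19, and each was lower in the KMT2D mutant than in wild type.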

How the results depend on the processing

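The number of the 35 splicing genes called by edgeR was 11 in the EZH2 mutant against wild type and 7 to 12 with each library left out. The 7 came from leaving out wild-type replicate 3 and the 12 from leaving out wild-type replicate 1. In the double mutant against the KMT2D mutant it was 12, and 10 to 13 with each library left out. In the KMT2D mutant it was 1 with each library left out, and 2 with loess offsets or with only the groups compared. In the double mutant against wild type the 6 calls became 3 with DESeq2, 3 with thinned counts and 3 to 7 with each library left out, 3 of them without wild-type replicate 3 or double mutant replicate 2 and 7 without double mutant replicate 3. In the double mutant against the EZH2 mutant the 1 call became 0 with only the groups compared and 0 with the replicate block, and 0 to 1 with each library left out, while DESeq2 and limma-voom each called 1 at the adjusted threshold. At an unadjusted p under 0.05 edgeR gave 4. The interaction had 0 with thinned counts and 0 to 1 with each library left out. No called value changed sign in any alternative.

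Replicate numbers gave no steady pairing across all lines. Deviations of libraries with the same number correlated at -0.29 to 0.38 and those with other numbers at -0.38 to 0.29. Between the KMT2D mutant and the double mutant, same-number pairs gave 0.29, 0.21 and 0.07, and the others -0.24 to 0. Between the EZH2 and KMT2D mutants, same-number pairs gave -0.23 and -0.29. Pairing between some lines is not excluded. With the replicate block 9, 1, 6, 0 and 12 genes were called in the 5 comparisons of lines, in the order of the EZH2 mutant, KMT2D mutant and double mutant against wild type and the double mutant against the EZH2 and KMT2D mutants, and 1 in the interaction. The 7 untested genes and those under 10 CPM had few counts, and small differences in them were not detectable.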
